A study of Rattus norvegicus with 23 samples.

Results

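The DNA replication and S-phase genes are a list of 43 genes that load and fire replication origins, move the replication fork, supply nucleotides, restore chromatin behind the fork or belong to the E2F transcription factors. They were chosen by gene symbol, and 42 of the 43 were found among the 30452 genes of the rat count table. E2f1 was not analysed here. Of the 42 genes, 41 passed the filter on low counts. Cdc45, which forms the active helicase together with the MCM and GINS proteins, was listed at 0 in all 23 samples. No level or fold change is given for it.

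RNA was sequenced from rat kidney epithelial cells (NRK-52E, labelled NRKE) and rat kidney fibroblasts (NRK-49F, labelled NRKF). Both are established cell lines, and the labels name no genetic change in any group. After 24 h of serum withdrawal all cells spent 48 h in medium at pH 7.4 or, with HCl added, at pH 6.0. The study's methods name serum-free medium for the 24 h and do not say whether the later medium held serum. NRK-52E cells gave n = 6 samples at each pH, and NRK-49F cells gave n = 6 at pH 7.4 and n = 5 at pH 6.0. By the labels, sample groups 1 and 3 hold the epithelial samples and sample groups 4 and 6 the fibroblast samples, each of them at both pH values. What a sample group stands for is not given in the sources used here, and although the study calls its samples biological, separate cultures are not named, so p-values measure the spread between these samples, which may be technical. Levels are given as FPM, the fragments of a gene per 1000000 of the library total after TMM scaling in edgeR. They are not divided by gene length and are therefore compared between samples, not between genes.

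Replication begins in G1 phase, when the origin recognition complex, CDC6 and CDT1 load the ring-shaped MCM helicase onto DNA, a step called licensing. In S phase the loaded helicase is activated by CDC45, GINS and MCM10, and DNA polymerases, the sliding clamp PCNA and its loader RFC copy the strands. Most of these genes are transcribed towards the start of S phase under E2F factors, whereas mitotic genes peak later and are often controlled through a different promoter element, the CHR. Cells without serum tend to leave the cycle, so their levels of these transcripts are usually lower than in growing cultures.

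Total counts ranged from 16412564 to 34250535 per sample, so that 3 counts, the limit a count of 0 allows, were worth 0.0839 to 0.203 FPM. This limit includes no error other than that of counting. The labelled cell types were checked against lists of 12 epithelial and 12 fibroblast markers. Of the epithelial markers, Krt19 and Ocln were not found in the counts under these symbols. Pdgfra, Col1a1, Col1a2, Fn1, Vcam1, Lum and Twist1 were higher in NRK-49F than in NRK-52E cells at both pH values. Of the epithelial markers, Krt7 was higher in NRK-52E cells (mean 21.8 against 1.42 FPM at pH 7.4), but Krt8 and, at a low level, Pax8 (mean 0.475 against 0.0110 FPM at pH 7.4) were higher in NRK-49F cells, and Cdh1, Epcam, Krt18, Cldn3, Cldn4, Cldn7 and Esrp1 were at or near 0 in both lines. Col3a1, a fibroblast marker, was higher in NRK-52E cells (mean 6149 against 1212 FPM at pH 7.4). Epithelial markers summed to 463 to 683 FPM in NRK-52E cells at pH 7.4 and to 199 to 265 FPM at pH 6.0. Fibroblast markers summed to 5109 to 8177 FPM and 1851 to 3127 FPM in the same groups. Most of each sum came from a single gene. These were Krt8 (mean 499 FPM at pH 7.4 and 222 FPM at pH 6.0) and Col3a1 (mean 6149 and 2402 FPM). The part of these shifts in the results was not tested. One library, replicate A042 of NRK-49F cells at pH 6.0 (sample group 4), stood apart. The replication genes summed to 1939 FPM in it, against 1307 to 1548 FPM in the other 4 samples of its group. Reads were counted without a stated strand setting, and the spans of Mcm3, Mcm6, Mcm7, Gins1, Gins2, Pola1, Pole, Pole2, Fen1, Lig1, Rrm2, Uhrf1 and E2f2 overlap another RefSeq gene, so their counts may hold reads of that gene. In bulk RNA, fewer cells in S phase and less transcript in each cell cannot be told apart.

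In NRK-52E cells, 25 of the 41 replication genes were lower and 3 were higher at pH 6.0 than at pH 7.4, and 13 did not pass the threshold (edgeR quasi-likelihood F-test, Benjamini-Hochberg, threshold 0.05). Of all 14777 genes tested, 36.6% were lower and 24.7% higher. The median log2 fold change was -0.79 over the replication genes and -0.12 over all genes tested. In NRK-49F cells the genes that passed went the other way, with 14 genes higher, 0 lower and 27 not past the threshold, beside 14.5% and 14.4% of all genes. At an unadjusted p under 0.05, 20 were higher and 0 lower in NRK-49F cells, but the share of all genes at that p was not counted. DESeq2 called 0 lower as well. The median was 0.33 over the list and 0.00088 over all genes. Without replicate A042, however, 5 instead of 14 genes were higher in NRK-49F cells (12.1% of all genes were higher in that fit), and the median was 0.25. The calls lost were those of Orc6, Mcm3, Gins1, Rfc3, Rfc4, Prim1, Pole, Rrm1 and Rrm2. The number was 9 without replicate A039 and 9 without replicate A041, both from NRK-49F cells at pH 7.4.

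**Figure D1:**
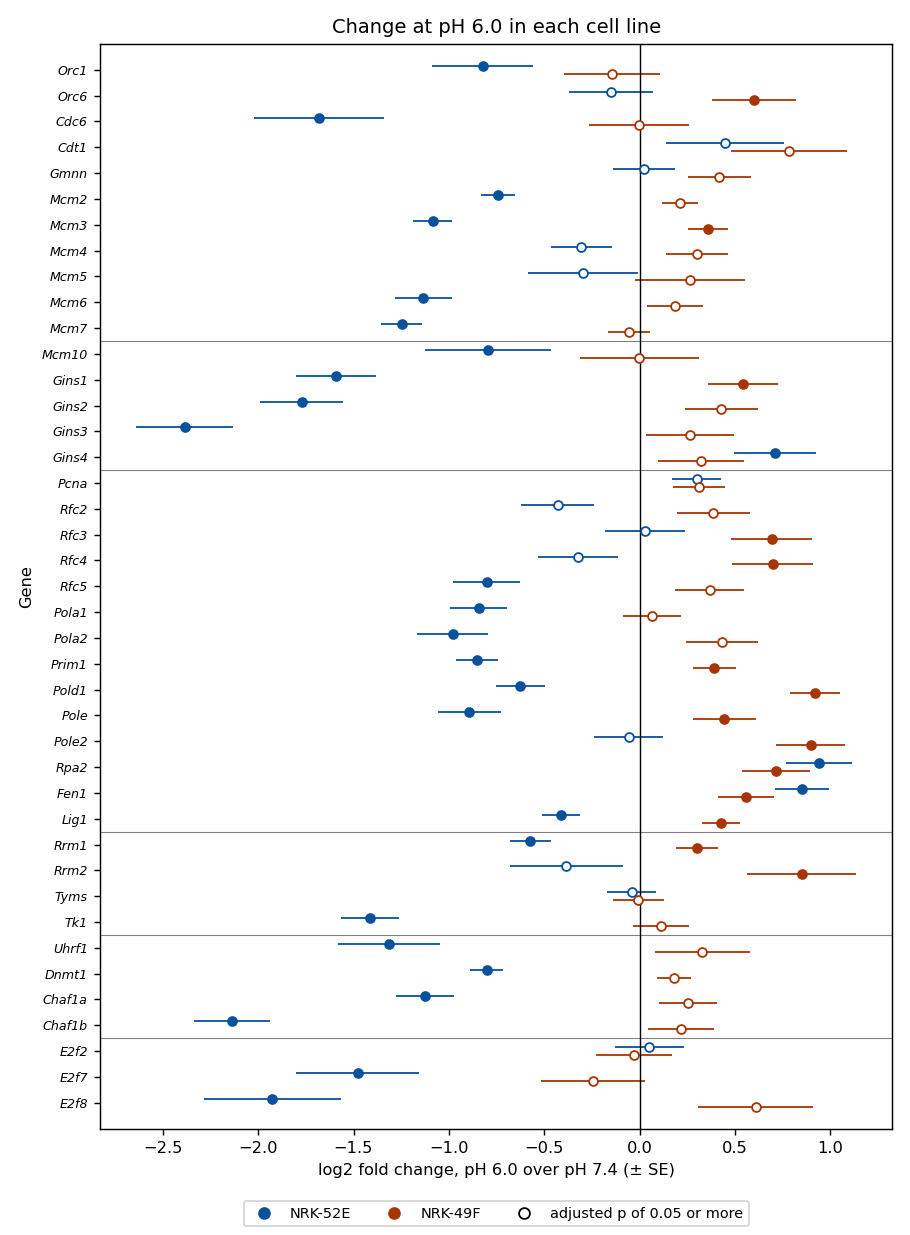
Log2 fold change of pH 6.0 over pH 7.4 (horizontal axis, ± SE) for the 41 tested replication genes (vertical axis, grouped by role), in NRK-52E cells (blue, n = 6 against 6) and NRK-49F cells (brown, n = 5 against 6). Filled points passed an adjusted p of 0.05, and 25 blue points lie filled to the left of 0, while all 14 filled brown points lie to the right.

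The genes that passed in both lines were few. Rpa2 and Fen1 were higher in both. Mcm3, Gins1, Prim1, Pold1, Pole, Lig1 and Rrm1, 7 in all, were lower in NRK-52E cells and higher in NRK-49F cells, a combination held by 2.94% of all genes tested. Without A042 only 2 of them, Pold1 and Lig1, passed in both lines, and without A039, A041 or A055 the number was 4. Another 18 genes were lower in NRK-52E cells and did not pass in NRK-49F cells, 5 (Orc6, Rfc3, Rfc4, Pole2 and Rrm2) were higher in NRK-49F cells and did not pass in NRK-52E cells, and Gins4 was higher in NRK-52E cells without passing in NRK-49F cells. The remaining 8, Cdt1, Gmnn, Mcm4, Mcm5, Pcna, Rfc2, Tyms and E2f2, passed in neither. With the sample group as a block, however, Mcm5 and Rfc2 (lower in NRK-52E cells), Cdt1 and Gmnn (higher in NRK-49F cells) and Pcna (higher in both) did pass (edgeR). The libraries of both pH values did not overlap at all for 19 falls and 2 rises in NRK-52E cells (23.2% and 15.4% of all genes). In NRK-49F cells this held for 9 rises and 0 falls (10.4% and 10.2% of all genes).

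Many genes of the list share promoter letters that the list did not use. Windows from 250 bases before to 50 bases after the start (RefSeq, build GRCr8) were found for 35 of the 43 genes. An E2F motif, searched as TTTGGCGC, TTTCCCGC, TTTGCCGC or TTTCGCGC on both strands, was held by 18 of the 35 (51.4%), against 1 of 44 mitosis genes (2.27%) and 2.37% of all 27457 genes with a window. The CHR, searched as TTTGAA on both strands, showed the reverse, with 3 of 35 replication genes (8.57%), 32 of 44 mitosis genes (72.7%) and 19.4% of all. The CCAAT box, searched as CCAAT on both strands, was held by 65.7%, 75% and 39.6%. Of 39 further replication genes outside the list, 38.5% held the E2F motif, 28.2% the CHR and 38.5% the CCAAT box. Among genes of the list with a window, the E2F motif was held by 11 of the 22 that were lower in NRK-52E cells (50%). It was held by 6 of the 10 that did not pass there (60%). A match of letters is a description, not a site in use.

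The 150 bases directly before the start are printed below for 4 licensing and firing genes that fell in NRK-52E cells (Gins3, Gins1, Mcm2, Mcm7), for Mcm6, whose match lies far from the start, for Tyms, which has the motif and did not pass in either line, and for 2 mitosis genes that went opposite ways in NRK-52E cells (Cdk1 and Mki67). Capitals mark the E2F motif in replication genes and the CHR in mitosis genes, and overlapping matches on opposite strands run together, as in Gins1, Mcm2 and Mcm6. The CHR letters in Gins3 and the E2F letters near the far end of Cdk1, which also hold them, were left in lower case. The sequences read 5′ to 3′ towards the start and come from RefSeq, build GRCr8.
Gins3: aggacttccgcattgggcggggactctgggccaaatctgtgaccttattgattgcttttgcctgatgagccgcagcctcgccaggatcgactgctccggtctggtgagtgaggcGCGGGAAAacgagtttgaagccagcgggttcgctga
Gins1: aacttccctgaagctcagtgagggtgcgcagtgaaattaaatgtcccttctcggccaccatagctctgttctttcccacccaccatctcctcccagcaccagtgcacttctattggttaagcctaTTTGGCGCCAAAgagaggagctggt
Mcm2: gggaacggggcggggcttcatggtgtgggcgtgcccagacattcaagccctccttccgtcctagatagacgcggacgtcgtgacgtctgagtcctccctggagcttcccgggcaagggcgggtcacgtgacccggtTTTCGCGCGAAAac
Mcm7: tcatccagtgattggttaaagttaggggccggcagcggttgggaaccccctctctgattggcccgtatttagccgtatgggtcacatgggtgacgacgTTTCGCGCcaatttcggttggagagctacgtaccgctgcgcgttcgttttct
Mcm6: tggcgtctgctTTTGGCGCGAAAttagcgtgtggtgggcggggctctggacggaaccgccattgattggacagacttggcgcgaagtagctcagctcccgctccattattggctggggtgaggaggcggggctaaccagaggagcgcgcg
Tyms: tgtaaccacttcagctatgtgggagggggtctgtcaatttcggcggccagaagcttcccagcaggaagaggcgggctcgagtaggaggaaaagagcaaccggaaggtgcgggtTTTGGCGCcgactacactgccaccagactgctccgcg
Cdk1: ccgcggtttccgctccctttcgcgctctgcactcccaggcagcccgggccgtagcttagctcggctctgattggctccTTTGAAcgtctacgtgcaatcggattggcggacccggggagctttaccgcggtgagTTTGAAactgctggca
Mki67: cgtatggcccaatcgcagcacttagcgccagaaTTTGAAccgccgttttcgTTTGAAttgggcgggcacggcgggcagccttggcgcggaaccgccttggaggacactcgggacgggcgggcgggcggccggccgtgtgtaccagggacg
They lie at chr19:9434680-9434829, minus strand (Gins3), chr3:160184770-160184919, plus strand (Gins1), chr4:122918095-122918244, minus strand (Mcm2), chr12:22163179-22163328, minus strand (Mcm7), chr13:42404353-42404502, minus strand (Mcm6), chr9:120776084-120776233, minus strand (Tyms), chr20:19265143-19265292, plus strand (Cdk1) and chr1:199952594-199952743, minus strand (Mki67). In Gins3 the E2F letters begin 36 bases before the start, and in Tyms 37 bases before it. In Mcm2 they begin 14 and 10 bases before the start, and in Mcm6 139 and 135 bases before it.

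Among the 11 licensing genes, 6 fell and none rose in NRK-52E cells, while 2 rose in NRK-49F cells. The MCM ring split into Mcm2, Mcm3, Mcm6 and Mcm7, which fell, and Mcm4 and Mcm5, which did not pass. Mcm2 (ENSRNOG00000016316, chromosome 4), a subunit of the helicase ring, had 124 to 137 FPM (median 132) in NRK-52E cells at pH 7.4 and 66.0 to 89.5 FPM (median 78.4) at pH 6.0. The fibroblasts had 87.8 to 104.7 FPM (median 99.5) at pH 7.4, and the 5 samples at pH 6.0 had 138, 109, 105.5, 116 and 100.4 FPM. The pH groups were separate in NRK-52E cells and overlapped in NRK-49F cells, with A042 highest. The log2 fold change was -0.74 ± 0.089 (SE) in NRK-52E cells (adjusted p = 1.46e-07) and 0.21 ± 0.093 in NRK-49F cells (adjusted p = 0.0902, edgeR quasi-likelihood F-test, Benjamini-Hochberg).
Mcm3, another subunit of the ring, had 19.3 to 27.0 FPM (median 22.04) at pH 7.4 and 9.98 to 11.7 FPM (median 10.5) at pH 6.0 in NRK-52E cells, and no library of the acid group came near the other. In the fibroblasts it had 24.6 to 31.5 FPM (median 28.3) at pH 7.4 and 45.2, 32.7, 34.05, 37.5 and 31.6 FPM at pH 6.0, with each acid library above all libraries at pH 7.4, the lowest only just. The log2 fold changes were -1.08 ± 0.10 and 0.36 ± 0.10 (adjusted p = 3.62e-09 and 0.0117, edgeR).

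The largest fall among licensing genes was that of Cdc6 (ENSRNOG00000027787, chromosome 10), the loader that brings the MCM ring to the origin. Its level in NRK-52E cells was low, 0.215 to 2.29 FPM (median 1.32) at pH 7.4 and 0.218 to 0.553 FPM (median 0.379) at pH 6.0, which rests on 4 to 44 and 4 to 19 counts per library. One library at pH 7.4, A022, lay below all acid libraries, so the groups overlapped. In NRK-49F cells Cdc6 had 5.83 to 7.46 FPM (median 6.65) at pH 7.4, and the acid samples had 7.19, 4.51, 7.12, 8.12 and 5.94 FPM, which spans the other group. Log2 fold changes were -1.68 ± 0.34 (adjusted p = 1.60e-04) and -0.0025 ± 0.26 (adjusted p = 0.999, edgeR).
Orc6, a subunit of the origin recognition complex, had the larger of the rises in NRK-49F cells, with 6.05 to 11.6 FPM (median 8.59) at pH 7.4 and 21.2, 8.35, 12.8, 13.0 and 10.1 FPM at pH 6.0. Of these, A042 lay far above the rest and A043 and A056 lay inside the pH 7.4 range. In NRK-52E cells it had 4.36 to 6.51 FPM (median 5.65) at pH 7.4 and 2.95 to 7.01 FPM (median 4.95) at pH 6.0, which overlap, and the acid libraries of sample group 3 lay above those of sample group 1. On the log2 scale the fold changes were 0.60 ± 0.22 in NRK-49F cells (adjusted p = 0.0428) and -0.15 ± 0.22 in NRK-52E cells (adjusted p = 0.575, edgeR). The rise of Orc6 did not pass when A042 was left out (log2 fold change 0.36, adjusted p = 0.223, edgeR), nor when most of the other NRK-49F libraries were left out singly.
The other licensing genes that fell in NRK-52E cells were Orc1, the DNA-binding ATPase of the origin complex (log2 fold change -0.82), Mcm6 (-1.13) and Mcm7 (-1.25), with -0.14, 0.19 and -0.054 in NRK-49F cells. The values of Mcm4 (-0.30 and 0.30), Mcm5 (-0.29 and 0.26), the loader Cdt1 (0.45 and 0.78) and its inhibitor geminin, Gmnn (0.023 and 0.42), did not pass in NRK-52E or NRK-49F cells, in that order. With the sample group as a block, Cdt1 (adjusted p = 6.48e-04) and Gmnn (0.0445) passed in NRK-49F cells and Mcm5 (0.0161) in NRK-52E cells (edgeR).

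**Figure D2:**
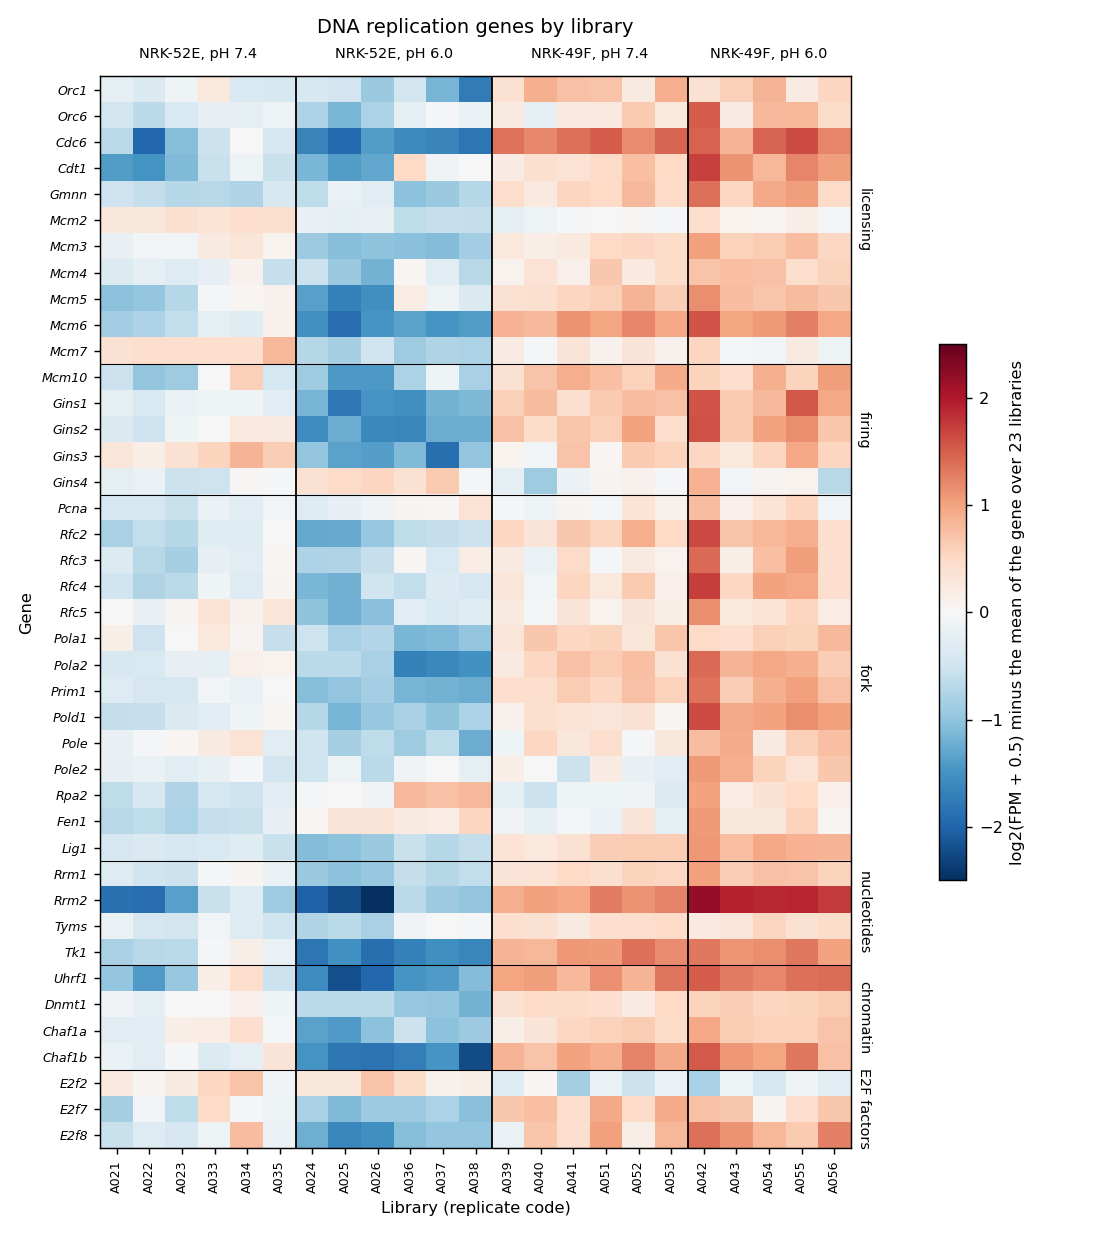
Level of each of the 41 tested replication genes (rows, grouped by role) in each of the 23 libraries (columns, by cell line and pH), as log2(FPM + 0.5) minus the mean of that gene over all libraries (colour, blue lower, red higher). The 6 libraries of NRK-52E cells at pH 6.0 form the bluest block, and A042 is the reddest column of NRK-49F cells at pH 6.0, with 1939 FPM in sum.

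The genes that fire a licensed origin held the largest fall of the list. Of the 5 tested, 4 fell and 1 rose in NRK-52E cells, and 1 rose in NRK-49F cells. Gins3 (ENSRNOG00000011863, chromosome 19), a subunit of the GINS complex that activates the helicase, went from 3.26 ± 0.652 FPM (SD, n = 6) at pH 7.4 to 0.619 ± 0.240 FPM (SD, n = 6) at pH 6.0 in NRK-52E cells. Its libraries had 2.48 to 4.31 FPM (median 3.20) at pH 7.4 and 0.221 to 0.850 FPM (median 0.640) at pH 6.0. The fibroblast libraries had 2.05 to 3.85 FPM (median 2.90) at pH 7.4, beside 3.31, 2.68, 3.34, 4.73 and 3.39 FPM at pH 6.0. The groups were far apart in NRK-52E cells and intermixed in NRK-49F cells, with log2 fold changes of -2.39 ± 0.25 (adjusted p = 2.05e-08) and 0.27 ± 0.23 (adjusted p = 0.424, edgeR).
Gins1 (ENSRNOG00000008091, chromosome 3), from the same complex, passed in both lines with opposite signs. It had 1.99 to 2.51 FPM (median 2.36) at pH 7.4 and 0.437 to 0.986 FPM (median 0.804) at pH 6.0 in NRK-52E cells, with no overlap. NRK-49F cells had 3.79 to 5.12 FPM (median 4.76) at pH 7.4 and 9.12, 4.63, 5.19, 9.09 and 5.83 FPM at pH 6.0, where A042 and A055 were high and A043 lay within the pH 7.4 range. These levels gave log2 fold changes of -1.59 ± 0.21 and 0.54 ± 0.18 (adjusted p = 5.59e-07 and 0.0291, edgeR).
Gins4, another subunit, rose in NRK-52E cells, with 3.70 to 5.67 FPM (median 4.74) at pH 7.4 and 5.47 to 8.99 FPM (median 7.68) at pH 6.0 and A038 alone inside the lower range. NRK-49F cells had 2.76 to 5.99 FPM (median 5.17) at pH 7.4 and 10.5, 5.24, 5.82, 5.95 and 3.22 FPM at pH 6.0, with A042 alone above the range of pH 7.4. The fits gave log2 fold changes of 0.71 ± 0.22 (adjusted p = 0.00658) and 0.32 ± 0.23 (adjusted p = 0.313, edgeR). So 3 of the 4 GINS subunits, which work as a complex, fell in NRK-52E cells while the other rose.
Gins2 fell by 1.77 on the log2 scale in NRK-52E cells, with 0.43 in NRK-49F cells (not past the threshold). Mcm10, which binds the activated helicase, had -0.79 (adjusted p = 0.0416, edgeR) and -0.00043, and it was the only call in NRK-52E cells that was lost when some replicate was left out.

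Of the 14 genes of the replication fork, 7 fell and 2 rose in NRK-52E cells, and 9 rose in NRK-49F cells. In NRK-49F cells all 14 had a log2 fold change above 0. Pcna (ENSRNOG00000021264, chromosome 3), the sliding clamp, had 59.8 to 84.8 FPM (median 69.8) and 70.3 to 114 FPM (median 87.2) in NRK-52E cells at pH 7.4 and pH 6.0. It had 80.6 to 112 FPM (median 89.9) in NRK-49F cells at pH 7.4 and 152, 97.3, 112, 129 and 84.9 FPM at pH 6.0. The groups overlapped in both lines, and the log2 fold changes of 0.30 ± 0.13 and 0.31 ± 0.14 did not pass (adjusted p = 0.0502 and 0.0892, edgeR), the first of them just above the threshold. Both passed with the sample group as a block (adjusted p = 0.0253 and 0.0438, edgeR).
Rpa2 (ENSRNOG00000013005, chromosome 5), a subunit of the protein that coats single-stranded DNA, rose in both lines. In NRK-52E cells it had 14.9 to 20.9 FPM (median 18.1) at pH 7.4 and 24.0 to 45.2 FPM (median 33.9) at pH 6.0, and the acid libraries of sample group 3 (42.5 to 45.2 FPM) lay well above those of sample group 1 (24.0 to 25.2 FPM). Fibroblasts had 17.5 to 24.0 FPM (median 22.5) at pH 7.4 and 51.3, 29.1, 33.4, 36.2 and 27.9 FPM at pH 6.0, without overlap. The log2 fold changes were 0.94 ± 0.17 and 0.72 ± 0.18 (adjusted p = 5.28e-05 and 0.00372, edgeR). Fen1, which cuts the flaps of Okazaki fragments, had 0.85 and 0.56 and passed in both.

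Most polymerase genes fell in NRK-52E cells, and 4 of the 6 rose in NRK-49F cells. Pold1 (ENSRNOG00000019681, chromosome 1), the catalytic subunit of polymerase delta, had 10.9 to 16.9 FPM (median 13.3) at pH 7.4 and 7.16 to 9.93 FPM (median 8.86) at pH 6.0 in NRK-52E cells. In the fibroblasts it had 17.4 to 22.02 FPM (median 20.9) at pH 7.4 and 52.3, 32.8, 33.8, 37.7 and 34.2 FPM at pH 6.0. The pH groups were separate in both lines, low in acid in the one and high in acid in the other. Log2 fold changes were -0.63 ± 0.13 and 0.92 ± 0.13 (adjusted p = 2.16e-04 and 8.38e-06, edgeR).
Prim1, the primase that makes the RNA primer, had 53.97 to 72.1 FPM (median 61.4) at pH 7.4 and 30.7 to 40.1 FPM (median 33.4) at pH 6.0 in NRK-52E cells. Its NRK-49F libraries had 98.0 to 120.4 FPM (median 106) at pH 7.4 and 187, 112, 134, 148 and 120.4 FPM at pH 6.0. The groups were separate in NRK-52E cells, whereas the fibroblast library A043 lay inside the range of pH 7.4. On the log2 scale the fold changes were -0.85 ± 0.11 and 0.39 ± 0.11 (adjusted p = 3.92e-07 and 0.0103, edgeR).
Pole, the catalytic subunit of polymerase epsilon, had 5.38 to 8.62 FPM (median 6.54) at pH 7.4 and 2.47 to 4.46 FPM (median 3.73) at pH 6.0 in NRK-52E cells without overlap. The fibroblasts had 6.05 to 9.56 FPM (median 8.07) at pH 7.4 and 11.6, 12.9, 7.71, 10.1 and 11.3 FPM at pH 6.0, where A054 alone lay inside the range of pH 7.4. These levels gave log2 fold changes of -0.89 ± 0.17 and 0.44 ± 0.17 (adjusted p = 6.02e-05 and 0.047, edgeR), and the rise, close to the threshold, did not pass without A042 (0.41, adjusted p = 0.0951) or when most other NRK-49F libraries were left out singly.
The largest fall at the fork was that of Pola2, the regulatory subunit of polymerase alpha, with 11.3 to 16.4 FPM (median 12.7) at pH 7.4 and 4.30 to 9.23 FPM (median 6.59) at pH 6.0 in NRK-52E cells. Its acid libraries separated by sample group, 8.30 to 9.23 FPM in group 1 and 4.30 to 4.88 FPM in group 3. In fibroblasts it had 17.5 to 25.6 FPM (median 22.5) at pH 7.4 and 40.9, 27.4, 29.7, 28.1 and 23.3 FPM at pH 6.0, with A042 highest and A056 alone inside the other range. The fits gave log2 fold changes of -0.98 ± 0.19 (adjusted p = 8.70e-05) and 0.43 ± 0.19 (adjusted p = 0.0872, edgeR).

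Lig1, the ligase that joins Okazaki fragments, completed the group of fork genes with opposite calls. It had 24.4 to 29.2 FPM (median 27.3) at pH 7.4 and 16.7 to 24.4 FPM (median 20.2) at pH 6.0 in NRK-52E cells. The fibroblasts had 43.4 to 56.3 FPM (median 51.6) at pH 7.4 and 77.2, 61.0, 71.0, 66.3 and 65.8 FPM at pH 6.0. The highest acid library of NRK-52E cells lay just below their lowest library of pH 7.4, and in NRK-49F cells all acid libraries were higher. The log2 fold changes were -0.41 ± 0.098 and 0.43 ± 0.10 (adjusted p = 8.94e-04 and 0.00237, edgeR).
The clamp loader was uneven. Rfc5 fell in NRK-52E cells (-0.80), whereas Rfc3 and Rfc4 rose in NRK-49F cells (0.69 and 0.70) and Rfc2 passed in neither line (-0.43 in NRK-52E and 0.39 in NRK-49F cells). Pola1, the catalytic subunit of polymerase alpha, fell in NRK-52E cells (-0.84, against 0.067 in NRK-49F cells). Pole2, a subunit of polymerase epsilon, rose in NRK-49F cells (0.90, against -0.056 in NRK-52E cells).

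**Figure D3:**
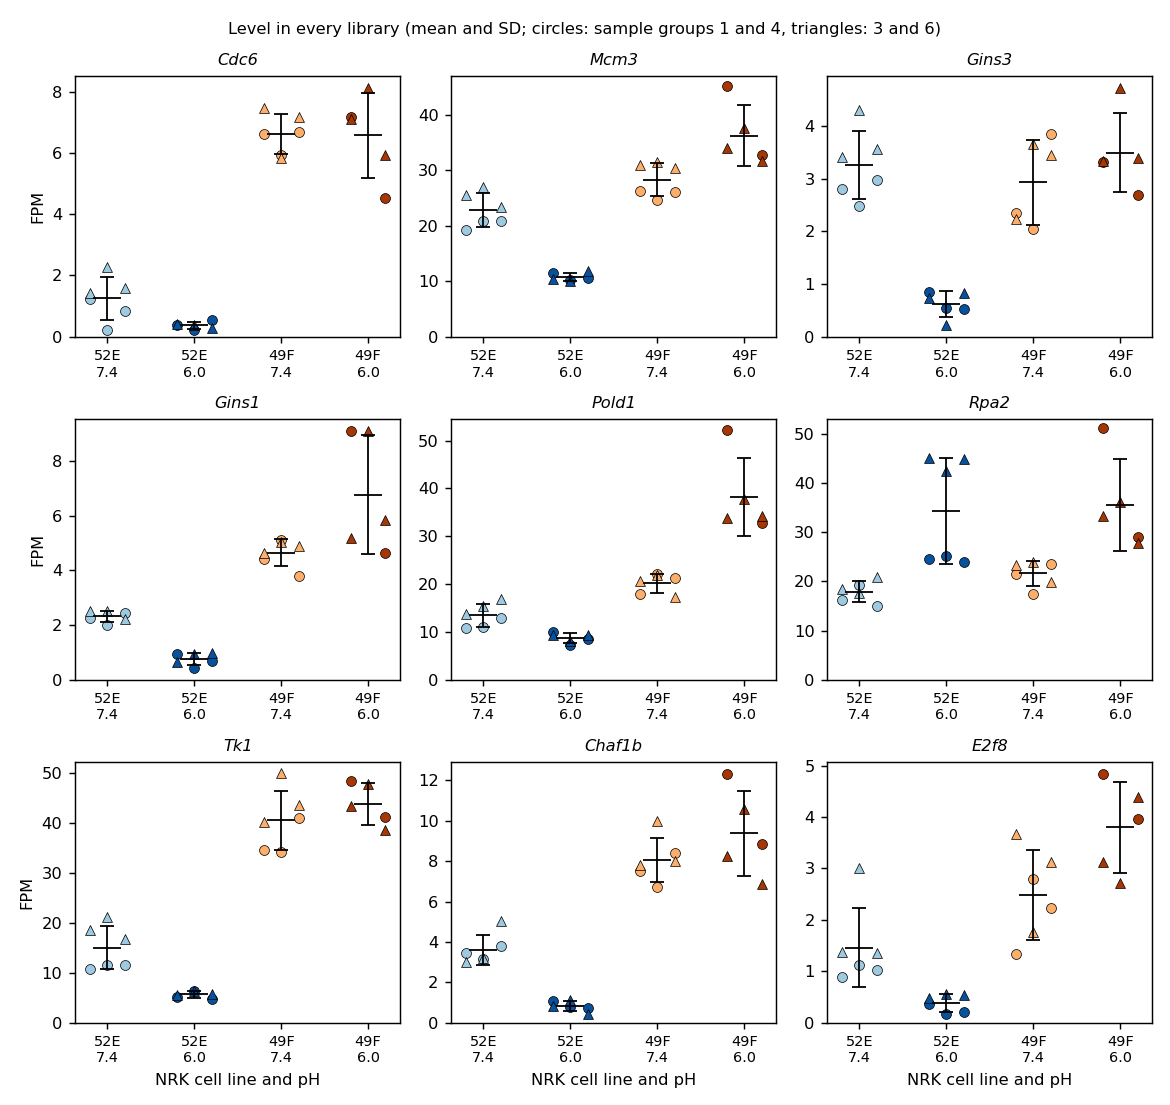
FPM (vertical axes, from 0) of 9 replication genes in each library, by cell line and pH (horizontal axes), with the mean and SD of each group and a marker for the sample group. Gins3, Gins1, Tk1, Chaf1b and E2f8 are lower in every acid library of NRK-52E cells than in any at pH 7.4, Rpa2 is higher, and Pold1 is separate in both lines with opposite directions.

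Of the 4 genes of nucleotide supply, 2 fell in NRK-52E cells and 2 rose in NRK-49F cells. Tk1 (ENSRNOG00000047314, chromosome 10), the thymidine kinase of the salvage pathway, had 10.7 to 21.1 FPM (median 14.2) at pH 7.4 and 4.75 to 6.34 FPM (median 5.69) at pH 6.0 in NRK-52E cells, where the acid libraries lay close together, well below the rest. Among NRK-49F libraries it had 34.1 to 49.9 FPM (median 40.5) at pH 7.4 and 48.3, 41.1, 43.2, 47.7 and 38.4 FPM at pH 6.0, within the same range. Log2 fold changes were -1.41 ± 0.15 (adjusted p = 2.92e-08) and 0.11 ± 0.15 (adjusted p = 0.611, edgeR).
Rrm1, the large subunit of ribonucleotide reductase, had 34.6 to 52.7 FPM (median 42.8) at pH 7.4 and 24.6 to 33.1 FPM (median 28.6) at pH 6.0 in NRK-52E cells. The fibroblasts had 63.3 to 74.1 FPM (median 69.0) at pH 7.4 and 104, 78.0, 84.0, 82.7 and 74.9 FPM at pH 6.0. The groups did not overlap in either line. On the log2 scale the fold changes were -0.57 ± 0.11 and 0.30 ± 0.11 (adjusted p = 7.12e-05 and 0.0436, edgeR).
Rrm2, the small subunit, had 5.06 to 16.1 FPM (median 9.11) and 3.11 to 12.5 FPM (median 7.27) in NRK-52E cells at pH 7.4 and pH 6.0, and at both pH values all libraries of sample group 3 (9.91 to 16.1 FPM) lay above all of sample group 1 (3.11 to 7.58 FPM). In NRK-49F cells it had 38.2 to 50.1 FPM (median 43.3) at pH 7.4 and 94.8, 78.4, 75.8, 76.6 and 69.3 FPM at pH 6.0, with every acid library above every other. These levels gave log2 fold changes of 0.85 ± 0.29 in NRK-49F cells (adjusted p = 0.0288) and -0.38 ± 0.30 in NRK-52E cells (adjusted p = 0.274, edgeR). With the sample group as a block the fall in NRK-52E cells passed (adjusted p = 0.00582, edgeR). Tyms, which makes thymidylate, had -0.042 (95% interval -0.31 to 0.22) and -0.0067 (-0.28 to 0.27).

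The 4 genes that restore chromatin and DNA methylation behind the fork all fell in NRK-52E cells, and none passed in NRK-49F cells, where all 4 had a log2 fold change above 0. Chaf1b (ENSRNOG00000001692, chromosome 11), a subunit of the histone chaperone CAF-1, had 3.00 to 5.04 FPM (median 3.33) at pH 7.4 and 0.444 to 1.10 FPM (median 0.801) at pH 6.0 in NRK-52E cells, far from overlapping. It had 6.72 to 9.99 FPM (median 7.92) in NRK-49F cells at pH 7.4 and 12.3, 8.84, 8.23, 10.6 and 6.89 FPM at pH 6.0, which overlap. The fits gave log2 fold changes of -2.14 ± 0.20 (adjusted p = 2.82e-09) and 0.22 ± 0.17 (adjusted p = 0.387, edgeR).
Dnmt1, the maintenance DNA methyltransferase, had 38.9 to 49.8 FPM (median 44.2) at pH 7.4 and 19.7 to 28.6 FPM (median 25.9) at pH 6.0 in NRK-52E cells. The fibroblasts had 52.1 to 64.0 FPM (median 61.7) at pH 7.4 and 67.4, 69.6, 66.5, 67.4 and 70.6 FPM at pH 6.0. The groups were separate in both lines, although the small shift in NRK-49F cells did not pass. The log2 fold changes were -0.80 ± 0.087 (adjusted p = 3.05e-08) and 0.18 ± 0.09 (adjusted p = 0.137, edgeR).
Chaf1a, the other CAF-1 subunit of the list, had -1.13 and 0.25, and Uhrf1, which guides Dnmt1 to newly copied DNA, had -1.31 and 0.33 in NRK-52E and NRK-49F cells.

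Of the E2F factors measured, the repressors E2f7 and E2f8 fell in NRK-52E cells, and the activator E2f2 did not pass in either line. E2f8 (ENSRNOG00000022537, chromosome 1) had 0.895 to 3.00 FPM (median 1.24) at pH 7.4 and 0.164 to 0.552 FPM (median 0.422) at pH 6.0 in NRK-52E cells, on 21 to 55 and 3 to 11 counts per library. A034 at pH 7.4 stood far above the others, yet all acid libraries were below all libraries at pH 7.4. NRK-49F cells had 1.33 to 3.67 FPM (median 2.52) at pH 7.4 and 4.84, 3.96, 3.12, 2.71 and 4.39 FPM at pH 6.0, with overlap. Log2 fold changes were -1.92 ± 0.36 (adjusted p = 6.36e-05) and 0.61 ± 0.30 (adjusted p = 0.136, edgeR).
E2f7 had 0.364 to 1.64 FPM (median 0.937) at pH 7.4 and 0.218 to 0.386 FPM (median 0.317) at pH 6.0 in NRK-52E cells, on 13 to 36 and 4 to 11 counts, and A021 at pH 7.4 reached down to the acid libraries. In fibroblasts it had 1.55 to 2.46 FPM (median 2.03) at pH 7.4 and 2.04, 1.95, 1.11, 1.55 and 1.94 FPM at pH 6.0, where A054 was lowest. On the log2 scale the fold changes were -1.48 ± 0.32 (adjusted p = 3.49e-04) and -0.24 ± 0.27 (adjusted p = 0.544, edgeR).
E2f2 had 3.85 to 7.04 FPM (median 4.93) and 4.47 to 7.10 FPM (median 5.12) in NRK-52E cells at pH 7.4 and pH 6.0. Among NRK-49F libraries it had 2.096 to 4.31 FPM (median 3.43) at pH 7.4 and 2.14, 3.72, 3.00, 3.86 and 3.33 FPM at pH 6.0. These groups lay on top of each other, with log2 fold changes of 0.051 ± 0.18 and -0.03 ± 0.20 (95% intervals -0.33 to 0.43 and -0.44 to 0.38).

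Whether the lines responded differently was tested as the change in NRK-52E cells minus the change in NRK-49F cells. For 28 of the 41 genes this difference was below 0 and for 0 above it, beside 24.7% and 16.8% of all genes tested (edgeR quasi-likelihood F-test, Benjamini-Hochberg), with a median of -0.98 over the list and -0.091 over all genes. At an unadjusted p under 0.05 the count above 0 was 0 as well, but the share of all genes at that p was not counted. The largest differences were those of Gins3 (-2.65 ± 0.34, adjusted p = 1.41e-06), E2f8 (-2.53 ± 0.47, adjusted p = 1.34e-04) and Chaf1b (-2.35 ± 0.26, adjusted p = 2.16e-07, edgeR). For Cdc6 the difference was -1.68 ± 0.43. Mcm4 and Rfc2 passed this test (-0.61 and -0.81) without passing in either line, and they lost it, as did E2f7, when some replicate was left out. For Pcna the difference was -0.013 (95% interval -0.40 to 0.38), for Tyms -0.035 (-0.42 to 0.34) and for E2f2 0.081 (-0.48 to 0.64). Rpa2 and Fen1, which rose in both lines, had 0.22 (-0.29 to 0.74) and 0.30 (-0.12 to 0.72).
The lines also differed at each pH. At pH 7.4, 32 replication genes were lower and 3 (Mcm2, Mcm7 and E2f2) higher in NRK-52E than in NRK-49F cells, beside 33.9% and 35% of all genes. At pH 6.0, 37 were lower and 1 (E2f2) higher, beside 38.9% and 36.6% of all genes. Both of these comparisons use libraries that also enter the pH comparisons. Mcm2 and Mcm7, higher in NRK-52E cells at pH 7.4 (log2 difference 0.42 ± 0.089 and 0.32 ± 0.11), were lower there at pH 6.0 (-0.54 ± 0.093 and -0.87 ± 0.11). Cdc6 showed the widest gap, -2.40 ± 0.28 at pH 7.4 and -4.08 ± 0.33 at pH 6.0, followed at pH 6.0 by Chaf1b (-3.51 ± 0.20), Rrm2 (-3.42 ± 0.32) and E2f8 (-3.32 ± 0.36). Rpa2, Fen1 and Gins4 were the genes that did not differ past the threshold at pH 6.0, with -0.051 (95% interval -0.42 to 0.32), -0.21 (-0.52 to 0.088) and 0.30 (-0.17 to 0.76).

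The signal of genes that mark NRK-49F cells was also measured in NRK-52E libraries, where it set an upper limit for RNA of NRK-49F cells of 0.00927% to 1.18% of a library at pH 7.4, with the maximum in A021, and of at most 0.0128% at pH 6.0. Its part in the results was not tested. Without A021, 26 genes were lower and 3 higher in NRK-52E cells (34.4% and 24.2% of all genes in that fit).

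Within sample groups, the direction in NRK-52E cells was alike. In sample group 1, 25 genes were lower and 3 higher (30.1% and 18.8% of all genes), and in sample group 3, 24 were lower and 3 higher (33.6% and 23.8% of all genes, edgeR). In NRK-49F cells 21 genes were higher in sample group 4 (12% of all genes), whose acid side is A042 and A043 alone. In sample group 6, 5 were higher (10.3% of all genes), namely Pold1, Pole2, Rpa2, Lig1 and Rrm2. In both sample groups 0 were lower, beside 11% and 10.9% of all genes at the same adjusted threshold. At an unadjusted p under 0.05, 0 were lower as well, but the share of all genes at that p was not counted. The medians were 0.56 in sample group 4 and 0.18 in sample group 6. In the test of the difference between sample groups 6 and 4, no gene of the table passed (0% of all genes in each direction, edgeR). At an unadjusted p under 0.05, 8 replication genes had the lower and 0 the higher change in group 6. The share of all genes at that p was not counted, so these numbers have no background to be read against.
In NRK-52E cells, 6 genes changed to a different degree in the sample groups, beside 3.78% of all genes with the higher and 6.87% with the lower change in sample group 3. Pola2 (-0.41 in group 1 and -1.70 in group 3), Tk1 (-1.07 and -1.68), Dnmt1 (-0.57 and -1.06) and Mcm2 (-0.52 and -0.99) fell further in group 3. Lig1 (-0.63 and -0.22) and Tyms (-0.40 and 0.24) fell in group 1 and did not pass in group 3.
The sample groups of NRK-52E cells differed in level as well. At pH 7.4, 7 genes (Cdt1, Mcm5, Mcm6, Rrm1, Rrm2, Tk1 and Uhrf1) were higher in group 3 and 0 lower, beside 1.25% and 1.71% of all genes. Uhrf1 (1.26) and Rrm2 (1.17) had the largest log2 differences. At pH 6.0, 12 were higher and 4 (Gmnn, Mcm2, Pola2 and Dnmt1) lower, beside 11.6% and 16.2% of all genes, led by Cdt1 (1.58), Mcm5 (1.56) and Rrm2 (1.52). Between the sample groups of NRK-49F cells no replication gene differed in level at pH 7.4 (0% of all genes) or at pH 6.0, where 0.0271% of all genes were higher and 0.00677% lower in group 6 (edgeR). At an unadjusted p under 0.05 the counts were 3 higher and 0 lower at pH 7.4 and 0 higher and 5 lower at pH 6.0. Here too the share of all genes was not counted.

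**Figure D4:**
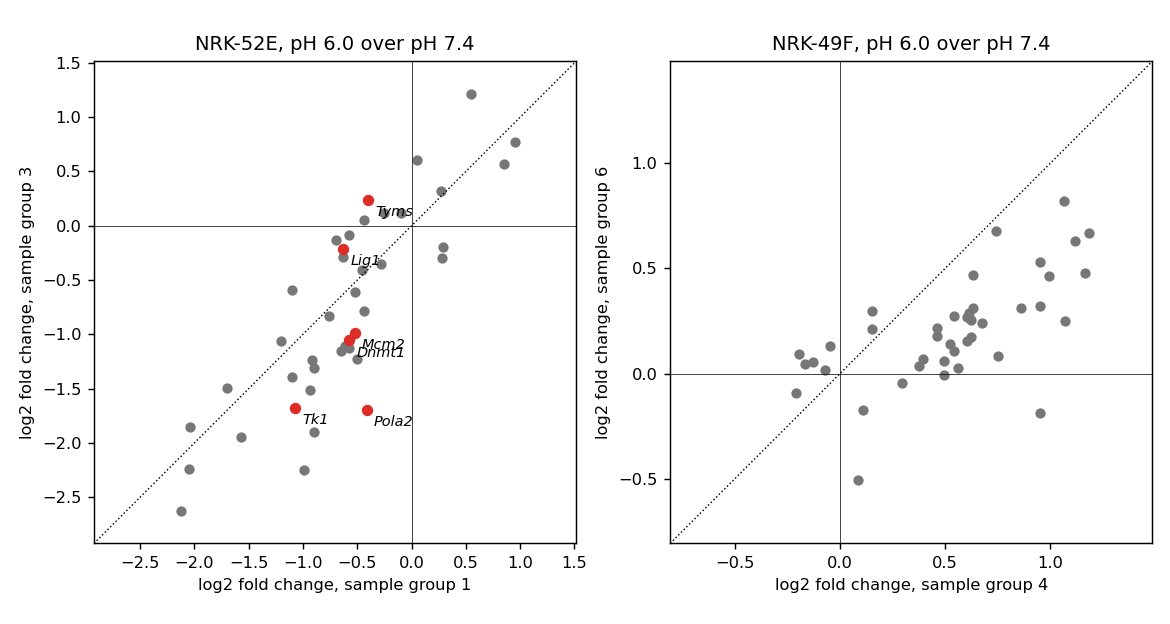
Log2 fold change of pH 6.0 over pH 7.4 for each tested replication gene in one sample group (horizontal axis) against the other (vertical axis), for NRK-52E cells (left) and NRK-49F cells (right), with a dotted line of equal change. Red points with names mark the 6 genes whose changes differed between the sample groups. In NRK-49F cells most points lie below the line, with medians of 0.56 in group 4 and 0.18 in group 6.

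Other genes of replication and its control were counted beside the list. Of 48 further replication genes, 43 were tested. In NRK-52E cells 17 of them were lower and 14 higher, beside 36.6% and 24.7% of all genes tested. In NRK-49F cells 20 were higher and 1 lower, beside 14.5% and 14.4% of all genes. The medians were -0.19 and 0.37. Clspn, the adaptor that signals stalled forks, fell in NRK-52E cells and rose in NRK-49F cells (log2 fold change -2.03 ± 0.28 and 0.78 ± 0.22), as did Asf1b, a histone chaperone (-1.87 ± 0.26 and 0.83 ± 0.22). Timeless, which travels with the fork, fell in NRK-52E cells (-1.79 ± 0.12, against 0.30 ± 0.12 in NRK-49F cells). Mcm8, a relative of the licensing helicase, rose in NRK-49F cells (0.97 ± 0.27), and Mtbp, an origin firing factor, was the gene that fell there (-0.34 ± 0.12). Dbf4, the activator of the origin-firing kinase CDC7, rose in both lines (2.49 ± 0.29 and 1.08 ± 0.29), and so did the deoxycytidine kinase Dck (1.68 ± 0.17 and 1.10 ± 0.17). Dna2, a nuclease that trims Okazaki flaps, rose in NRK-52E cells (0.98 ± 0.14).
Of 29 tested genes that govern E2F and the retinoblastoma protein, 12 rose and 10 fell in NRK-52E cells. Of all genes, 24.7% rose and 36.6% fell there. In the fibroblasts 7 rose and 2 fell, beside 14.5% and 14.4% of all genes. Cdkn1a, the p21 inhibitor of cyclin-dependent kinases, rose in NRK-52E cells (4.41 ± 0.27, against 0.19 ± 0.24 in NRK-49F cells). Rb1 (1.10 ± 0.14) and Lin54 (0.99 ± 0.21), which belong to repressor complexes, rose there as well, while the kinase inhibitor Cdkn2c (-1.38 ± 0.087), cyclin A2, Ccna2 (-0.76 ± 0.23), and Fbxo5 (-0.75 ± 0.12) fell. In NRK-49F cells Ccna2 (0.76 ± 0.23), Lin37 (0.62 ± 0.15) and Skp2 (0.52 ± 0.13) rose, and Cdkn1b (-0.50 ± 0.069) and the E2F partner Tfdp1 (-0.39 ± 0.058) fell.

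Mitosis genes, which act later in the cycle, served for comparison. Of 50 listed, 49 were tested, and Foxm1 stayed out with at most 12 counts in any library. In NRK-52E cells 16 were lower and 15 higher, beside 36.6% and 24.7% of all genes. Their median log2 fold change was -0.18, close to the -0.12 of all genes. The replication genes had 25 lower and 3 higher with a median of -0.79. In NRK-49F cells 35 mitosis genes were higher and 0 lower, beside 14.5% and 14.4% of all genes. Their median was 0.79, and all 49 had a log2 fold change above 0. The replication genes had 14 higher and a median of 0.33. In the test of the difference between the lines, 23 mitosis genes were lower and 1 (Cdk1) higher, against 28 and 0 replication genes. Of all genes, 24.7% were lower and 16.8% higher in that test. Thus the genes of the list leaned further down than mitosis genes in NRK-52E cells and less far up in NRK-49F cells. These are counts and medians that were not tested against each other, and the lists were chosen with earlier results of these data known. The further replication genes outside the list had a median near that of mitosis genes in NRK-52E cells, and near that of the list in NRK-49F cells.
Hmmr, a spindle protein (log2 fold change 2.0 ± 0.43), Cdk1, the mitotic kinase (1.36 ± 0.16), and Anln, a protein of the cleavage furrow (1.28 ± 0.31), rose most in NRK-52E cells. The pH groups overlapped for Hmmr, with 2.64 to 9.44 FPM at pH 7.4 and 5.30 to 43.5 FPM at pH 6.0. They also overlapped for Anln (9.04 to 25.5 and 18.3 to 74.3 FPM), but not for Cdk1. Spc25, of the kinetochore (-1.54 ± 0.23), Cenpf (-1.53 ± 0.36) and Mki67, the gene of the proliferation antigen Ki-67 (-1.46 ± 0.21), fell most. In NRK-49F cells Pttg1, the gene of securin (1.88 ± 0.36), Hmmr (1.38 ± 0.43) and Cenpi, of the centromere (1.26 ± 0.24), rose most. Without A042, 26 mitosis genes were higher in NRK-49F cells and the median was 0.73. Without A033, a library of NRK-52E cells at pH 7.4, the median of the mitosis genes in NRK-52E cells was 0.058 instead of -0.18. With A036 left out, 10 instead of 15 mitosis genes were higher there.

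**Figure D5:**
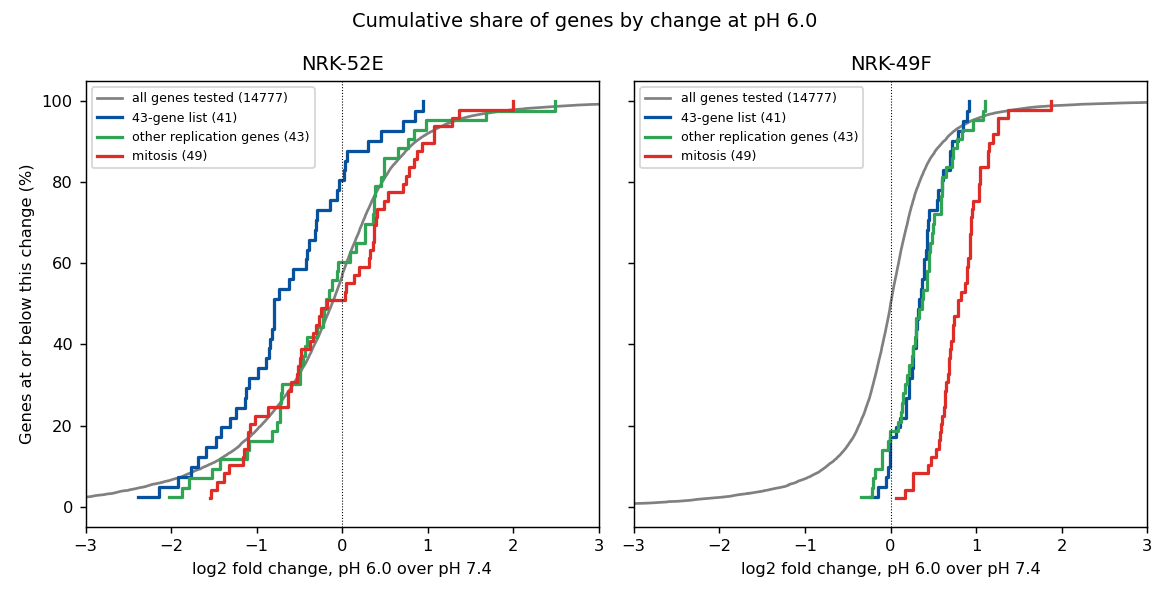
Cumulative share of genes (vertical axis, %) by log2 fold change of pH 6.0 over pH 7.4 (horizontal axis, shown from -3 to 3) in NRK-52E cells (left) and NRK-49F cells (right), for the 41 tested replication genes (blue), 43 other replication genes (green), 49 mitosis genes (red) and all 14777 tested genes (grey). At its middle the blue curve lies left of the others in NRK-52E cells (median -0.79), and the red curve lies furthest right in NRK-49F cells (median 0.79).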

How the data were processed

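Poly(A) RNA of 23 samples was sequenced in pairs by the authors, aligned with HISAT2 2.1.0 and counted over exons with featureCounts, multi-mapping reads included. The methods name genome build rn7 and the submitters' notes rn6. The deposited values are raw counts per gene, and 13 per-sample columns that match none of the samples were not used. Counts were scaled by TMM, filtered (filterByExpr, minimum count 10, minimum total 15) and tested in 1 edgeR 4.0.16 quasi-likelihood fit of 4 groups (R 4.3.3), with Benjamini-Hochberg adjustment over 14777 genes and a threshold of 0.05. SE is the absolute log2 fold change divided by the square root of F. On simulated counts of 14413 genes the fit recovered 180 of 200 changed genes for NRK-52E cells, with 11 others called, and 143 of 200 for the difference between the lines, with 5 others called. Total counts ranged from 16412564 to 34250535, and intervals cover 95%. Genes described by sample had, in their role, the highest mean FPM or the largest rise or fall in a line, opposite calls in the lines, 1 of the 3 largest differences or 1 of the 3 lowest mean levels. The 3 largest rises and falls of each comparison list were named. Members and gene lists were chosen with earlier results of these data known. DESeq2 1.42.0 and other scalings, filters, sample sets and left-out replicates served as alternatives, and the fit without A021 was singled out after seeing the data. Promoters came from RefSeq (GRCr8).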

Additional observations from a re-analysis of the deposited data

Results flagged for a closer look

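In 9 of 164 groups of samples, the highest or lowest library lay apart from the others by Dixon's test at its 95% critical value, which chance alone does in about 1 group in 20. Of these, 3 concern A042, the NRK-49F library at pH 6.0 with the highest sum of replication genes, which was highest for Mcm5 (23.3 FPM, next 17.8 FPM), Rfc5 (37.4 FPM, next 23.9 FPM) and Pold1 (52.3 FPM, next 37.7 FPM). In NRK-52E cells at pH 7.4, A035 was highest for Mcm7 (96.7 FPM, next 74.05 FPM) and Fen1 (60.4 FPM, next 47.1 FPM), and A034 was highest for E2f8 (3.00 FPM, next 1.37 FPM). In NRK-52E cells at pH 6.0, A025 was lowest for Mcm6 (8.25 FPM, next 11.05 FPM) and A037 was highest for Mcm10 (1.99 FPM, next 1.05 FPM). In NRK-49F cells at pH 7.4, A052 was highest for Fen1 (87.4 FPM, next 67.6 FPM).

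The change with pH differed between the lines for 28 genes (edgeR's quasi-likelihood test of the difference, adjusted p under 0.05), each time with the lower log2 fold change in NRK-52E cells. Among licensing genes the differences were those of Cdc6 (-1.68), Mcm2 (-0.96), Mcm3 (-1.44), Mcm4 (-0.61), Mcm6 (-1.32) and Mcm7 (-1.19). Among firing genes they were those of Gins1 (-2.14), Gins2 (-2.20) and Gins3 (-2.65). At the fork they were those of Rfc2 (-0.81), Rfc4 (-1.02), Rfc5 (-1.17), Pola1 (-0.91), Pola2 (-1.41), Prim1 (-1.25), Pold1 (-1.55), Pole (-1.34), Pole2 (-0.95) and Lig1 (-0.84). In nucleotide supply they were those of Rrm1 (-0.87), Rrm2 (-1.23) and Tk1 (-1.53), and in chromatin those of Uhrf1 (-1.64), Dnmt1 (-0.98), Chaf1a (-1.38) and Chaf1b (-2.35). Among E2F factors they were those of E2f7 (-1.23) and E2f8 (-2.53).

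Between the sample groups of NRK-52E cells, the log2 fold change in sample group 3 minus that in sample group 1 passed the same test for 6 genes, Pola2 (-1.28), Tk1 (-0.61), Dnmt1 (-0.48), Mcm2 (-0.46), Lig1 (0.41) and Tyms (0.64).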

How the results depend on the processing

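Counts and medians of the replication genes kept their direction for the change in each line, the difference between the lines and the comparisons of the lines at each pH under the alternatives run for each. These were RLE or upper quartile scaling, DESeq2, no filter beyond 1 count, at least 10 counts in every sample, the sample group as a block, each line alone, single sample groups, thinning to the smallest library, an adjusted p under 0.01 and each replicate left out in 23 fits. The genes higher in NRK-49F cells were the least stable result. Their number of 14, beside 14.5% of all genes, became 5 in sample groups 3 and 6 alone, beside 10.3% of all genes. At an adjusted p under 0.01 it was 5, and with a replicate left out it ranged from 5 (without A042) to 15. Of the 14 calls, 5 (Pold1, Pole2, Rpa2, Fen1 and Lig1) were kept in all alternatives other than single sample groups, against 26 of 28 in NRK-52E cells and 24 of 28 differences between the lines. The number of genes with the higher change in NRK-52E cells, 0, became 1 in sample groups 3 and 6 alone and was 0 to 1 with a replicate left out, and the number higher in NRK-52E cells at pH 6.0 was 1 to 2 (2 without A042). The median in NRK-52E cells, -0.79, became -0.43 when each sample had to hold 10 counts or more, which leaves 33 genes and removes the low ones. The median in NRK-49F cells, 0.33, became 0.56 in sample groups 1 and 4 alone and 0.18 in sample groups 3 and 6 alone. Blocking on the sample group gave 28 lower and 4 higher genes in NRK-52E cells, while 18 were higher and 0 lower in NRK-49F cells. In that fit 31 differences lay below 0 and 0 above. The shares of all genes in the blocked fit are not given here, so the gain is not read as particular to the list. The calls gained were those of Mcm5 (adjusted p = 0.0161), Pcna (0.0253), Rfc2 (0.0178) and Rrm2 (0.00582) in NRK-52E cells, Cdt1 (6.48e-04), Gmnn (0.0445), Pcna (0.0438) and Rfc5 (0.0442) in NRK-49F cells, and the differences of Orc6 (0.0210), Mcm5 (0.00790) and Rfc3 (0.0281, edgeR), and none was lost. The cause of these shifts was not tested. No paired analysis was possible because the replicate codes differ between pH 7.4 and pH 6.0. Cdc6, Gins3, E2f7 and E2f8 rest on fewer than 20 counts per library in NRK-52E cells at pH 6.0.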
